A study of Rattus norvegicus with 11 samples.

Results

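Glial reaction was followed through 5 genes of the rat retina, Gfap, Vim, Stat3, Timp1 and Cd44, which were taken by gene identifier. No cut-off on a measured value picked them, but earlier results of these data were known when they were chosen. The identifiers were ENSRNOG00000002919 for Gfap, ENSRNOG00000018087 for Vim, ENSRNOG00000019742 for Stat3, ENSRNOG00000010208 for Timp1 and ENSRNOG00000006094 for Cd44. All 5 were present among the 12037 genes of the gene table, and all 5 were among the 12031 genes kept by the filter on low counts. RNA sequencing had been performed on the retinas of 11 female rats. The P23H group consisted of hemizygous P23H-1 rats, which carry a transgene for a mutant rhodopsin and had been bred from transgenic line 1 and Long Evans rats (strain P23HxLE). Of these, 5 had received the solvent DMSO and 4 had received halofantrine (HAL), an antimalarial drug, in both cases by injection of 5 µL into the vitreous of each eye. The concentration was given as a range of 20 to 100 µM, without the value used for each animal. The 2 wild-type (WT) rats were untreated and of strain SDxLE, so that genotype, strain cross and injection could not be told apart in any comparison with WT. The titles of the WT samples also end in L and those of the P23H samples in R, and the WT animal numbers lie outside the range of the others, so these differences cannot be told apart from genotype either. The age at which these retinas were taken was not given in the sources used here.

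Müller cells span the whole retina and, together with the astrocytes of its inner surface, react to the loss or injury of neurons in a process known as gliosis. Gfap and Vim encode intermediate filament proteins, the cytoskeletal fibres that reacting glia build up, and Gfap in Müller cells is the classical sign of a stressed retina. Stat3 is a transcription factor that is activated downstream of cytokines of the interleukin 6 family. Timp1 is a secreted inhibitor of matrix metalloproteinases, and Cd44 is a surface receptor for hyaluronan that is found on Müller cell processes. Each of these genes can also be made by other cells, and whole-retina RNA cannot tell more cells of a type from more RNA per cell. Markers of the retinal cell types were not analysed here, because the identifiers of the files are not paired with symbols in the tables used, so the labelled tissue was not checked against its markers.

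The upstream sequences of the 2 filament genes are shown because Gfap and Vim rose by different amounts, as described below. They are the 250 bases before the RefSeq start of each gene (build GRCr8), at chr10:88361662-88361911 on the minus strand for Gfap and at chr17:81577011-81577260 on the plus strand for Vim. Capitals mark motifs found by a search of both strands, in which no matches overlapped.

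Gfap: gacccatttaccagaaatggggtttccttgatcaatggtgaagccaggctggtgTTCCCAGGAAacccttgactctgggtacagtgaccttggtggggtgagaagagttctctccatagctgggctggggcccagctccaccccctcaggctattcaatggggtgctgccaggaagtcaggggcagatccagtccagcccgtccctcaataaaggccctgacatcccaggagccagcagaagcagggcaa

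Vim: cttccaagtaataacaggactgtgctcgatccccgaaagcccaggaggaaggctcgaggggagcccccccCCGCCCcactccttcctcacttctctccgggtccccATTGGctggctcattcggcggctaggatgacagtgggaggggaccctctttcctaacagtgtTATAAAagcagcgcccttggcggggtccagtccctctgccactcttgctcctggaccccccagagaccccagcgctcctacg

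The Gfap window held TTCCCAGGAA, a STAT motif with 4 bases between its arms, from 196 to 187 bases before the start. Such a wider STAT motif occurred in 6.25% of 33469 promoters of the same length. The usual STAT motif, TTCNNNGAA, was present in the windows of 0 of the 5 genes and in 7.67% of all promoters, and the AP-1 motif TGACTCA in 0 of the 5 and in 4.05%. The Vim window held the TATA box motif TATAAA, which occurred in 12.9% of all promoters. It also held, on the minus strand, the GC box motif GGGCGG, found in 30.5% of promoters. The last motif in this window, again on the minus strand, was the CCAAT box, found in 34.0% of promoters. The remaining matches were a GC box before Timp1 and 2 CCAAT boxes before Stat3. A match describes the letters in this window and is not evidence of a binding site.

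The gene table held between 11685202 and 34198536 estimated counts per library. P23H DMSO replicate 3 stood apart from the rest of its group in each of the 5 genes. P23H HAL replicate 1 was the highest HAL library in Vim, Timp1 and Cd44 and the lowest in Stat3. Results that rest on these libraries are given with and without them. P23H DMSO replicate 3 was the highest of the 11 libraries in 5 of 5 genes, where 24.4% of all genes tested were highest in it. Levels are given in CPM, the counts of a gene per 1000000 counts of its library after scaling by TMM factors, in the order of the replicates.

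Gfap was low in WT, at 22.1 and 26.7 CPM. In the DMSO group it lay at 520, 254, 1699, 450.0 and 369 CPM, and in the HAL group at 313, 353, 303 and 290.1 CPM. Every P23H library was therefore far above WT, and the HAL values were packed closely inside the wider range of the DMSO values. Without replicate 3, the DMSO mean was 399 ± 114 CPM (SD, n = 4), against 315 ± 27.3 CPM in HAL (SD, n = 4) and 24.4 ± 3.30 CPM in WT (SD, n = 2).

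Vim, the other filament gene, was already well expressed in WT, at 114 and 97.7 CPM. Its DMSO values were 339, 196, 1017, 237 and 257 CPM, and its HAL values were 301, 279.8, 249.7 and 231 CPM. The HAL values all lay inside the range of the DMSO values, and the lowest P23H library was above both WT libraries. HAL averaged 265 ± 30.9 CPM (SD, n = 4), close to the 257 ± 60.2 CPM of the DMSO libraries other than replicate 3 (SD, n = 4).

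Stat3, the transcription factor of the set, was at 66.5 and 65.6 CPM in WT. It lay at 234, 162, 443, 221 and 201 CPM with DMSO and at 156, 223, 200.5 and 196 CPM with HAL. The P23H groups again overlapped, and P23H HAL replicate 1 was the lowest P23H library. DMSO replicate 3 was less far from its group here than in the other genes, at 2.10-fold the median of the other DMSO libraries.

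Timp1, the protease inhibitor, was scarce in WT, with 40 and 29 estimated counts, or 2.36 and 2.40 CPM. The 95% Poisson intervals of these counts were 28.6 to 54.5 and 19.4 to 41.6, and they cover counting error only. The DMSO values were 22.7, 15.0, 182, 13.5 and 19.0 CPM, and the HAL values were 30.8, 22.5, 20.8 and 27.4 CPM. With DMSO replicate 3 aside, 3 of the 4 DMSO libraries were below all 4 HAL libraries, and the fourth, replicate 1, lay among them. The DMSO mean was 50.5 ± 73.8 CPM with replicate 3 (SD, n = 5) and 17.5 ± 4.13 CPM without it (SD, n = 4), so that 1 library decided whether the DMSO mean was above or below the HAL mean of 25.4 ± 4.56 CPM (SD, n = 4).

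Cd44, the hyaluronan receptor, was at 33.6 and 32.8 CPM in WT. It lay at 54.8, 58.2, 209, 54.4 and 46.2 CPM with DMSO and at 90.4, 54.4, 61.6 and 49.7 CPM with HAL. DMSO replicate 3 and HAL replicate 1 were the only P23H libraries outside a narrow band of 46.2 to 61.6 CPM, which was itself above both WT libraries. Without these libraries DMSO averaged 53.4 ± 5.07 CPM (SD, n = 4) and HAL 55.2 ± 5.98 CPM (SD, n = 3).

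**Figure D1:**
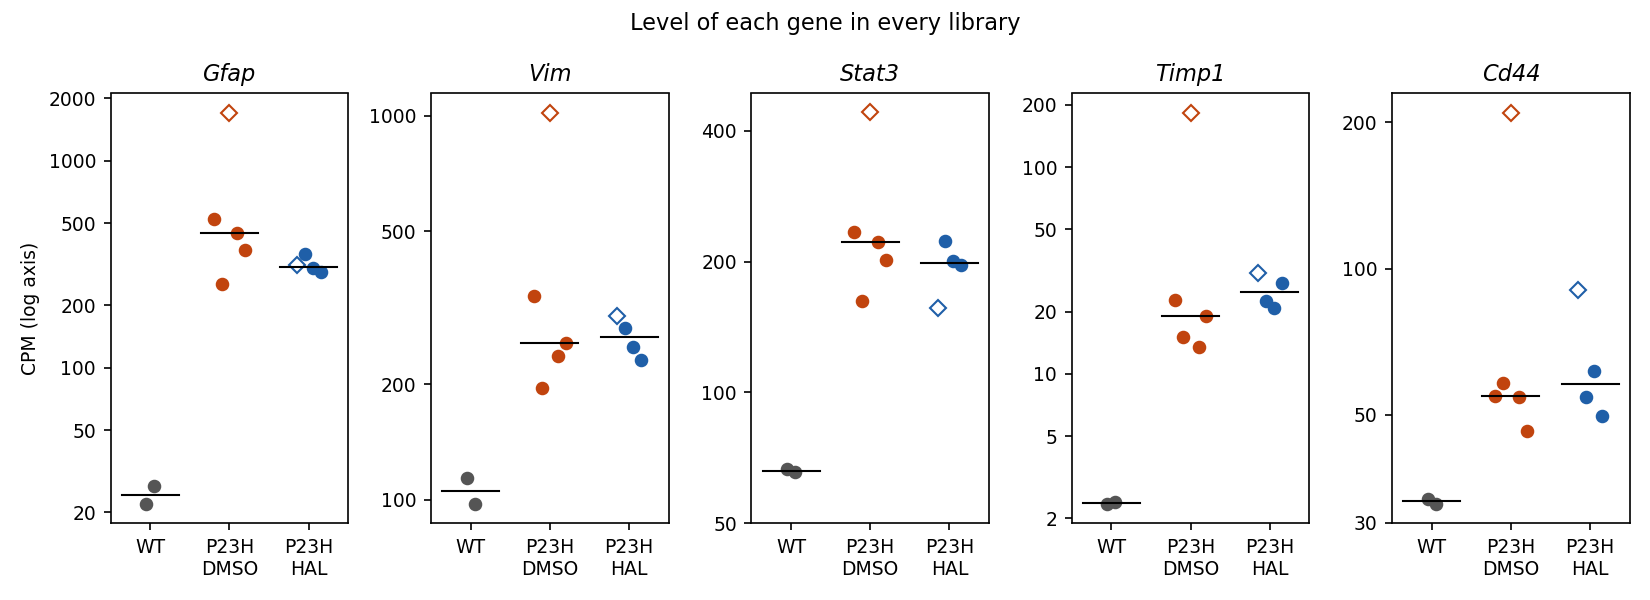
CPM on a log axis in each library for the 5 genes, with a panel for each gene and the WT, P23H DMSO and P23H HAL groups on the horizontal axis. Points are libraries, open diamonds mark P23H DMSO replicate 3 and P23H HAL replicate 1, and black lines are group medians. All 9 P23H points lie above both WT points in each panel, and the DMSO diamond is the highest point of each panel, at 1699 CPM for Gfap and 182 CPM for Timp1.

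The size of these departures was compared with that of other genes. P23H DMSO replicate 3 exceeded the median of the other DMSO libraries by 2.06 on the log2 scale in Gfap, 2.04 in Vim, 3.43 in Timp1 and 1.93 in Cd44, and by 1.07 in Stat3. The gap of Timp1 was 10.8-fold, and only 1.35% of all genes had a gap as large. The corresponding shares were 3.84% for Gfap, 3.92% for Vim, 4.21% for Cd44 and 9.10% for Stat3, while the median gap of all genes was -0.05. The departure of this library was thus uneven, largest in Timp1 and smallest in Stat3. P23H HAL replicate 1 departed less, by 0.73 in Cd44, 0.45 in Timp1, 0.27 in Vim and 0.05 in Gfap, and by -0.36 in Stat3. Together the 5 genes held 0.0222% and 0.0213% of all counts in WT, between 0.0707% and 0.120% in the other 8 P23H libraries and 0.347% in P23H DMSO replicate 3.

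**Figure D2:**
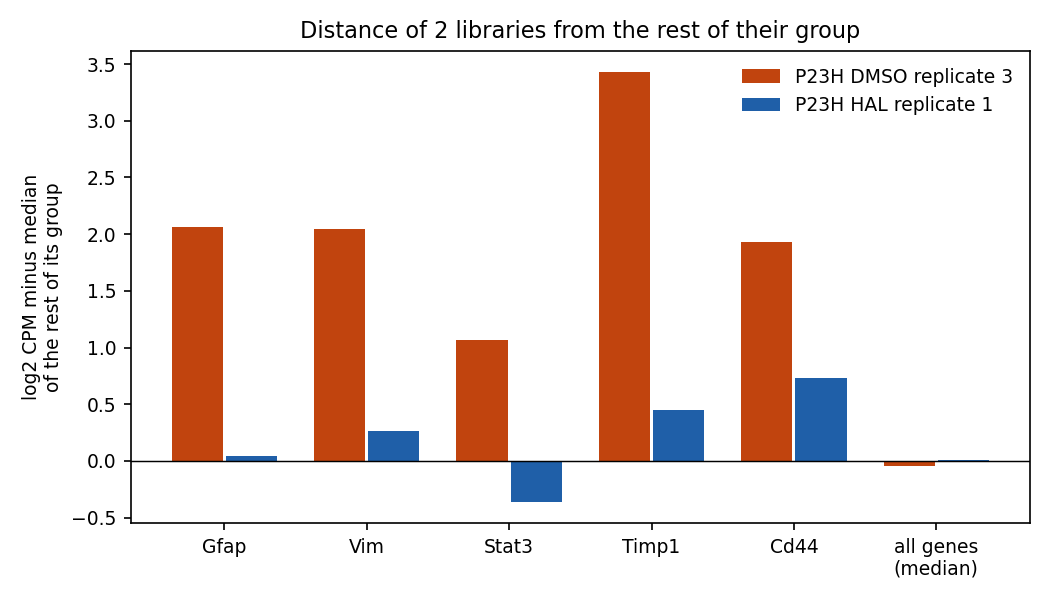
Difference in log2 CPM between each of 2 libraries and the median of the other libraries of its group, for the 5 genes and for the median of all genes. P23H DMSO replicate 3 (orange bars) is above its group in each gene, most in Timp1 at 3.43 and least in Stat3 at 1.07, while the bars of P23H HAL replicate 1 (blue) run from -0.36 in Stat3 to 0.73 in Cd44.

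Whether the genes differed between mutant and WT retina was tested by comparing P23H DMSO with WT. Gfap, Timp1, Vim and Stat3 rose in P23H DMSO, which made 4 of the 5 genes called (edgeR quasi-likelihood test, adjusted p under 0.05), where 10.9% of all genes tested were called higher. Gfap rose 27.0-fold, a log2 fold change of 4.76 with an SE of 0.78 (adjusted p 0.00292 by edgeR), and stood at place 73 of 12031 genes ordered by log2 fold change. Timp1 rose 21.2-fold (4.40 ± 1.25 log2 units, estimate and SE, with an adjusted p of 0.0311 in edgeR). Smaller rises were found in Vim, at 3.87-fold (1.95 ± 0.61 log2 units, estimate and SE, with an adjusted p of 0.0434 in edgeR), and in Stat3, at 3.82-fold (1.93 ± 0.35 log2 units, estimate and SE, with an adjusted p of 0.00490 in edgeR). Cd44 had a log2 fold change of 1.35 with an SE of 0.58 and was not called by edgeR, at an adjusted p of 0.119. The call of Vim was close to the threshold and was lost when DMSO replicate 1 or any 1 of the HAL libraries was left out, at adjusted p of 0.0522 to 0.0620 by edgeR. The median log2 fold change was 1.95 over the 5 genes and 0.04 over all genes tested.

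Leaving out P23H DMSO replicate 3 lowered the folds and narrowed their errors. That library stood apart in these same 5 genes, so its removal was bound to narrow their spread. The adjusted p of fits without it are not free of that choice. Gfap was then 15.5-fold above WT (3.96 ± 0.27 log2 units, estimate and SE, with an adjusted p of 5.58e-06 in edgeR) and Timp1 6.96-fold (2.80 ± 0.28 log2 units, estimate and SE, with an adjusted p of 5.11e-05 in edgeR). Stat3 was 2.94-fold above WT (log2 fold change 1.56, SE 0.17), Vim 2.31-fold (log2 fold change 1.21, SE 0.19) and Cd44 1.53-fold (log2 fold change 0.61, SE 0.21), with adjusted p of 9.34e-05, 0.00105 and 0.0467 by edgeR in that order. All 5 genes thus passed without this library, where 14.4% of all genes tested were called higher. In fits that kept P23H DMSO replicate 3 but only 1 WT library, Gfap was at 4.58 log2 units without WT replicate 1 and 4.88 without WT replicate 2. The lone WT library was there assumed to vary like those of the other groups, so calls are not given.

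Halofantrine-treated P23H retinas were also compared with WT, the same 2 WT libraries serving in both comparisons. Gfap rose 12.9-fold (3.69 ± 0.74 log2 units, estimate and SE, with an adjusted p of 0.0111 in edgeR) and Stat3 2.94-fold (1.55 ± 0.35 log2 units, estimate and SE, with an adjusted p of 0.0185 in edgeR). These were the 2 of 5 genes called higher, where 5.55% of all genes tested were called higher. Timp1 was at a log2 fold change of 3.41 (SE 1.21), Vim at 1.33 (SE 0.60) and Cd44 at 0.95 (SE 0.59), and their adjusted p of 0.0868, 0.155 and 0.286 by edgeR missed the threshold. P23H DMSO replicate 3, which belongs to neither group, entered this comparison through the shared estimate of spread. Without it 5 of 5 genes were called, where 14.0% of all genes tested were called higher, and the log2 fold changes moved little, to 3.64 for Gfap, 3.36 for Timp1, 1.50 for Stat3, 1.28 for Vim and 0.89 for Cd44. With P23H DMSO replicate 3 kept and P23H HAL replicate 1 left out, Gfap and Stat3 were again called, where 970 of the 12030 genes tested were called higher. Cd44 was then at a log2 fold change of 0.68. In fits of all P23H libraries with only 1 WT library, Gfap was at 3.52 without WT replicate 1 and 3.81 without WT replicate 2. In 5 of 5 genes all 9 P23H libraries were above both WT libraries, which was the case for 18.4% of all genes tested.

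**Figure D3:**
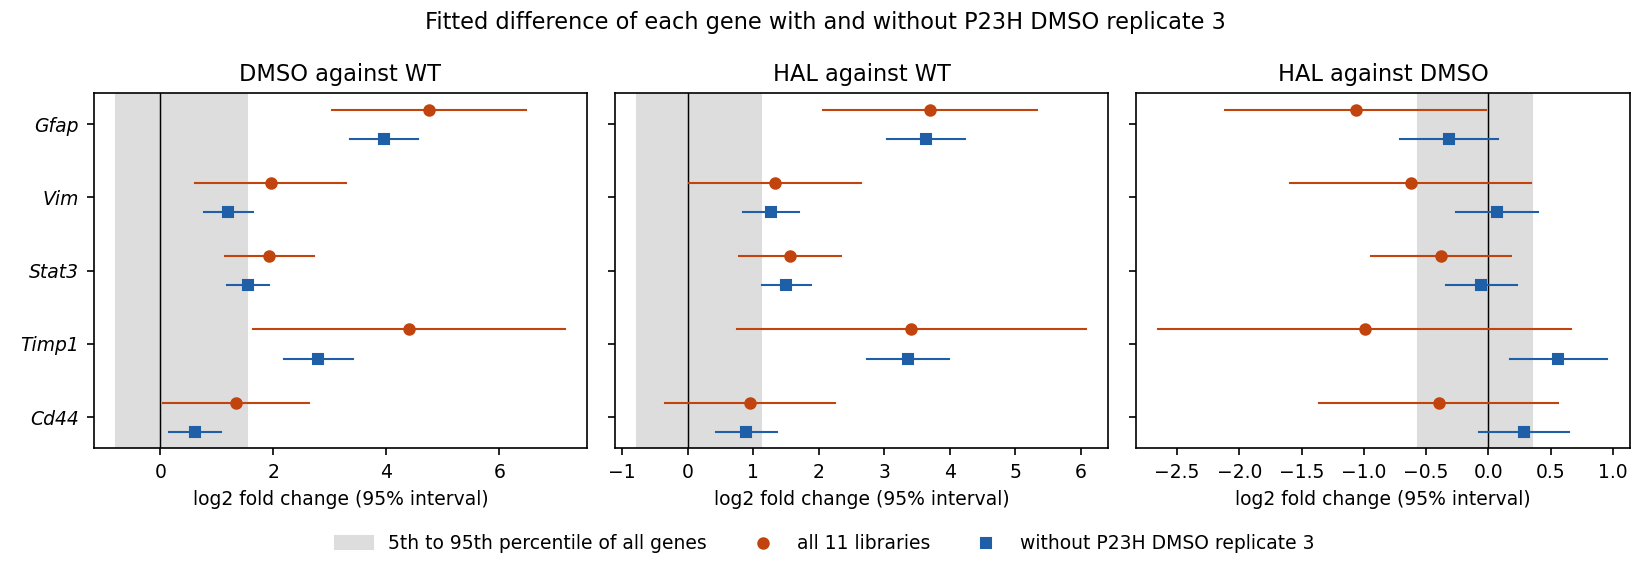
Log2 fold change of each gene (horizontal axis) with its 95% interval in 3 comparisons, from the edgeR fit of all 11 libraries (orange circles) and from the fit without P23H DMSO replicate 3 (blue squares). Grey bands run from the 5th to the 95th percentile of the log2 fold changes of all genes in the fit of all libraries. Gfap, Timp1 and Stat3 lie beyond the band in both comparisons with WT and in both fits, as does Vim except in DMSO against WT without that library, while Cd44 lies inside it, and in HAL against DMSO the points of Vim, Timp1 and Cd44 change side when that library is left out.

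HAL was then compared with DMSO in the mutant retina. The animal numbers of these groups do not overlap, so a cohort cannot be told apart from treatment. None of the 5 genes passed the adjusted threshold in edgeR, where 0.00831% of all genes tested did. At an unadjusted p under 0.05 in edgeR there was 1 gene, Gfap, where 1310 of the 12031 genes tested were under it. DESeq2, limma-voom and limma-voom with sample weights called 0 of the genes for which they gave an adjusted p. DESeq2 gave none for Timp1. Gfap was lower with HAL by a log2 fold change of -1.06 (SE 0.48, 95% interval -2.11 to -0.02, unadjusted p 0.0473 and adjusted p 0.457 by edgeR). Timp1 was at -0.99 (interval -2.65 to 0.66), Vim at -0.62 (interval -1.59 to 0.34), Cd44 at -0.40 (interval -1.36 to 0.56) and Stat3 at -0.38 (interval -0.94 to 0.18). In 0 of the 5 genes did the HAL and DMSO values fail to overlap, against 2.97% of all genes tested. With P23H HAL replicate 1 alone left out, Gfap stayed at -1.06 (interval -2.33 to 0.21, unadjusted p 0.0919 by edgeR). In that fit 0 of the 5 genes had an unadjusted p under 0.05 in edgeR, where 1175 of the 12030 genes tested were under it.

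The size of these differences, and their sign in Vim, Timp1 and Cd44, rested on P23H DMSO replicate 3, while Gfap and Stat3 stayed negative without it. Without it the log2 fold change of Gfap was -0.32 (interval -0.71 to 0.07, adjusted p 0.444 by edgeR), that of Vim 0.067 (interval -0.26 to 0.40) and that of Stat3 -0.06 (interval -0.34 to 0.23). Timp1 turned to 0.56, or 1.48-fold higher with HAL (interval 0.17 to 0.95, unadjusted p 0.00908 and adjusted p 0.202 by edgeR), and Cd44 to 0.28 (interval -0.08 to 0.64). Again 0 of the 5 genes passed, where 0.00831% of all genes tested did. Timp1 was the 1 gene of the 5 with an unadjusted p under 0.05 in edgeR, where 1782 of the 12030 genes tested were under it. With P23H HAL replicate 1 left out as well, Timp1 was at 0.46 (interval 0.07 to 0.85, adjusted p 0.227 by edgeR), Cd44 at 0.070, Stat3 at 0.037 and Vim at 0.0030, while Gfap was at -0.31.

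Ratios between the genes within a library do not depend on how libraries are scaled, and 10 such ratios were computed after the levels had been seen. The ratio of Gfap to Vim counts was 0.194 and 0.273 in WT. It was 1.53, 1.30, 1.67, 1.90 and 1.44 in the DMSO libraries and 1.04, 1.26, 1.21 and 1.25 in the HAL libraries. Gfap thus increased more than its filament relative Vim in every P23H library, and it did so less in all 4 HAL libraries than in all 5 DMSO libraries, though the nearest values, 1.26 and 1.30, were close. The value of P23H DMSO replicate 3 lay within the range of its group. This was the 1 ratio of 10 whose HAL and DMSO values did not overlap. When each gene of the table was set against Vim in this way 0.499% did not overlap, and when set against Gfap 1.57%. The ratio was found among several and was not tested.

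With P23H DMSO replicate 3 left out, 4 of the 10 ratios did not overlap between HAL and DMSO. The ratio of Gfap to Timp1 was 10.2 to 15.7 in HAL and 17.0 to 33.4 in the other DMSO libraries, against 9.35 and 11.1 in WT, but only 9.31 in P23H DMSO replicate 3. Timp1 relative to Vim was 0.0803 to 0.118 in HAL and at most 0.0766 in those DMSO libraries, and Timp1 relative to Stat3 was 0.101 to 0.197 against at most 0.0966. Of these 4 ratios 3 involve Timp1, and 18.0% of all genes did not overlap when set against Timp1 in the same libraries. The remaining ratio was Gfap to Vim, for which no share over all genes was computed in these libraries. No test was made of them. The ratio of Cd44 to Vim overlapped between all 3 groups, at 0.296 and 0.336 in WT, 0.161 to 0.297 in DMSO and 0.194 to 0.301 in HAL. The overlap with WT rested on DMSO replicate 2 (0.297) and HAL replicate 1 (0.301), and every other P23H library lay below both WT values.

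**Figure D4:**
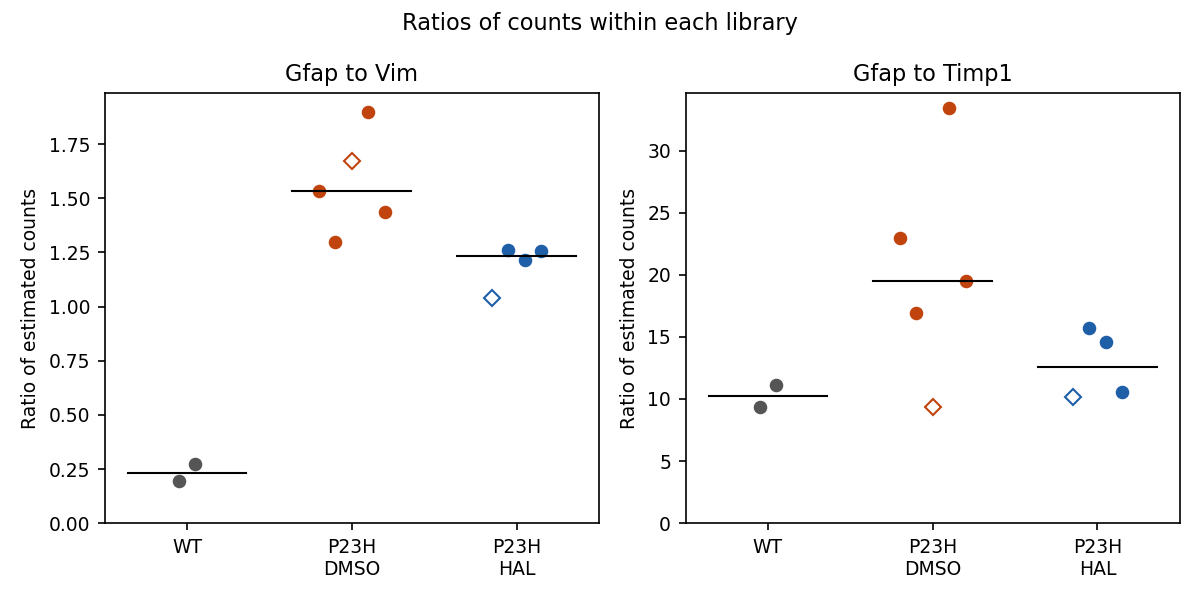
Ratio of the estimated counts of Gfap to those of Vim (left) and Timp1 (right) in each library, by group, on linear axes from 0. Points are libraries, open diamonds mark P23H DMSO replicate 3 and P23H HAL replicate 1, and black lines are medians. For Gfap to Vim all DMSO points, from 1.30 upward, lie above all HAL points, and for Gfap to Timp1 the DMSO diamond at 9.31 lies below the other DMSO points.

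The spread between replicates was large in these genes. The biological coefficient of variation, the spread beyond counting error, was 0.477 for Gfap, 0.445 for Vim, 0.444 for Cd44, 0.272 for Stat3 and 0.725 for Timp1 with all libraries, where the median of all genes was 0.182. Only 1.93% of genes varied as much as Timp1. Without P23H DMSO replicate 3 the range over the 5 genes was 0.140 for Stat3 to 0.191 for Timp1, each above the median of 0.139. In those libraries 16.3% of genes varied as much as Timp1, 18.4% as much as Gfap, 24.0% as much as Cd44, 33.3% as much as Vim and 49.2% as much as Stat3.

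Genes with a similar pattern were sought by Pearson's r of log2 CPM over the 11 libraries among 12026 other genes, as a description, since the P23H and WT libraries form separate groups. ENSRNOG00000029949 was the closest to Gfap (r = 0.994) and also to Stat3 (r = 0.993). It lay at 0.472 and 0.579 CPM in WT and between 24.0 and 1245 CPM in the P23H libraries, with its highest value in P23H DMSO replicate 3. ENSRNOG00000012228 was the closest to Cd44 (r = 0.992), at 3.60 and 3.81 CPM in WT, 59.5 CPM in P23H DMSO replicate 3, 15.4 CPM in P23H HAL replicate 1 and 6.66 to 8.35 CPM elsewhere. Over the 8 P23H libraries without DMSO replicate 3, r was 0.905 for the former with Gfap and 0.943 for the latter with Cd44. Of the 15 places given to the 3 closest genes of each member, 1 was kept when the 2 libraries were left out. The r of the named genes stayed high over the remaining libraries, WT included. ENSRNOG00000029949 was at 0.9943 with Gfap (place 11 of 12026) and 0.9945 with Stat3 (place 8), and ENSRNOG00000012228 at 0.9595 with Cd44 (place 54).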

How the data were processed

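Retinal RNA of 11 rats was sequenced as strand-specific libraries of polyadenylated RNA. Per the study's methods, the authors aligned reads with kallisto to the Ensembl rat transcriptome and summed transcripts to genes with tximport, so that reads shared by similar transcripts are divided among them. The deposited gene table holds estimated counts that are not scaled for depth, and 29.0% of its values are not whole within 1e-06. A further deposited table holds the same counts divided by 1 constant per library, a normalized signal. It was used for an alternative scaling only. The authors' table of fold changes and p-values was not used, and neither was the transcript table, because transcripts could not be paired with the 5 genes.

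Counts were rounded. Genes were filtered with filterByExpr, which removed 6, libraries were scaled by TMM factors, and all 11, grouped by the sample labels, entered 1 quasi-likelihood fit (edgeR 4.0.16, R 4.3.3). Adjustment over all genes followed Benjamini and Hochberg, and an adjusted p under 0.05 was called. Log2 CPM used a prior count of 2. The SE of an edgeR log2 fold change was derived as its absolute value divided by the square root of the F statistic. Its 95% interval was built from that SE with a quantile of the t distribution. Each library carried its own animal number, and replicates were numbered in order of deposition. The numbers of the HAL animals (30718 to 30725) and the DMSO animals (30948 to 31503) do not overlap, so a cohort cannot be told apart from treatment. Counting intervals are exact Poisson intervals at 95%. Alternatives used limma 3.58.1 and DESeq2 1.42.0. The 10 ratios between genes were added after the levels had been seen. The genes, the lists and the 2 libraries examined apart were chosen with earlier results of these data known. For each gene the 3 closest genes of at least 1 CPM were sought, and 2 were named because the identifiers have no symbols. The 19 lists fixed by symbol, a scaling by Müller cell markers and the isoforms were not analysed here, since 0 of their symbols could be paired with an identifier. Promoters were matched by symbol for all 5 genes in a RefSeq table.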

Additional observations from a re-analysis of the deposited data

Results flagged for a closer look

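Each of the 5 genes was searched for a library whose gap to the nearest other library, divided by the range of its group, was above Dixon's 95% critical value for a group of that size, in the DMSO and in the HAL group. Of these 10 sets, 5 held such a library, and all 5 were P23H DMSO replicate 3 in the DMSO group. At about 1 set in 20, chance would give 0.5 for independent sets of normally distributed values. These sets share libraries, and the search used CPM and was not repeated on log2 CPM, so the count cannot be weighed against that figure. This library was also known to stand apart from earlier results. The levels were 1699 CPM for Gfap, 1017 CPM for Vim, 443 CPM for Stat3, 182 CPM for Timp1 and 209 CPM for Cd44. The gap divided by the group's range was 0.946 in Timp1, 0.927 in Cd44, 0.826 in Vim, 0.816 in Gfap and 0.742 in Stat3. The 5 values come from the same library and do not count as separate observations. The reason for them was not tested.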

How the results depend on the processing

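Other scalings, testing without the filter, unrounded counts and robust dispersions changed 0 of the calls of the 5 genes. For DMSO against WT, a fit of the 2 groups alone called 2 genes, losing Vim and Timp1. Leaving out 1 P23H library at a time gave 3 to 5 called. For HAL against WT, 5 genes were called by limma-voom with sample weights and by a fit of the 2 groups alone. Without P23H DMSO replicate 3 and P23H HAL replicate 1 together 5 were also called, where 2683 of the 12028 genes tested were called higher. Fits that each left out 1 P23H library called 2 to 5. Shares over all genes were not computed for the sample weights or for the 2 groups alone. They were computed for only some of the fits without 1 P23H library. Counts that lack a share have no such reference. HAL against DMSO called 0 throughout. The log2 fold change of Gfap was negative in each of these fits. The direction turned with sample weights for Timp1 (0.56) and Cd44 (0.058), and without both libraries for Vim (0.0030), Stat3 (0.037), Timp1 (0.46) and Cd44 (0.070). In fits that each left out 1 library its log2 fold change ran from -0.80 to 0.067 for Vim, -1.24 to 0.56 for Timp1 and -0.61 to 0.28 for Cd44, the upper ends being without P23H DMSO replicate 3. Vim in DMSO against WT, close to the threshold, was also lost without DMSO replicate 1 or any 1 HAL library (adjusted p 0.0522 to 0.0620 by edgeR), and limma-voom lost Timp1 (adjusted p 0.532). The cause was not tested. Cd44 in DMSO against WT was called by DESeq2 (adjusted p 0.0390) and with sample weights. DESeq2 gave no adjusted p for Timp1. Of the 15 places of the closest genes, 1 was kept without both libraries. No paired analysis was made, since each library carried its own animal number and the labels give no pairing. Timp1 in WT rests on 40 and 29 estimated counts, which limits the precision of its fold against WT.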
